A study of Mus musculus with 27 samples.

Results

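The 10 genes described here are Fos, Fosb, Jun, Junb, Jund, Atf3, Egr1, Ier2, Dusp1 and Zfp36, the immediate early transcription factors and the feedback genes that are switched on with them. They were taken by name: every probe set that the array annotation ties to 1 gene symbol and whose symbol is one of the 10 was kept. That gave 15 probe sets for the 10 genes, out of 12422 probe sets and 8251 genes with such a probe set. For each gene its brightest probe set on average is the main reading, and the others are given beside it.

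The study followed Myc activation and withdrawal in pancreatic islets of living mice. All mice carried 2 transgenes, MycER and BclXL, both under an insulin promoter. MycER is Myc fused to an oestrogen receptor domain, so that Myc acts only while tamoxifen or its active form 4-hydroxytamoxifen (4OHT) is present, and BclXL is a survival protein that protects beta cells from Myc-driven death. Islets were cut out by laser capture, and their RNA was amplified linearly in 2 rounds before hybridisation. The 9 groups of 3 arrays each were untreated mice (time 0), mice killed 2, 4, 8 or 24 h after a 4OHT injection, mice dosed every day for 21 days, and mice killed 2, 4 or 6 days after the last of 21 daily doses. The 21 day samples are titled as 4OHT but their treatment field says daily tamoxifen. The labels read here give no time between their last dose and death. Against the acute groups, length of dosing therefore cannot be told apart from time since the last dose, drug form or any difference in age. The samples used here hold no vehicle-injected group and no group without MycER, so Myc activity cannot be told apart from the injection or the drug. The 3 arrays of a group are labelled as separate samples without saying that each came from its own mouse. The p-values therefore measure the spread between these samples, pooled over the 9 groups.

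Immediate early genes are transcribed within minutes of a growth factor, stress or calcium signal without new protein synthesis, because the factors that drive them (SRF with its Elk partners, and CREB) are already bound and wait only to be phosphorylated. Their proteins then start the next wave: Fos and Jun family members pair into AP-1, Egr1 binds its own GC-rich sites, and Dusp1 and Zfp36 shut the signal down by removing phosphate from MAP kinases and by speeding the decay of unstable mRNAs. The mRNAs themselves decay fast, so the response is usually a short pulse, and in islets glucose and incretin signals as well as stress and the handling of tissue are known to set it off.

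SRF, CREB, AP-1 and Egr1 are known to act through sites in proximal promoters, and 5 of these promoters are printed because these genes carried the largest or the best separated differences below. Each is the 250 bases before the RefSeq start of the gene on GRCm38.p6, 5′ to 3′ on the strand of the gene. The windows are chr12:85473640-85473889 (plus strand) for Fos, chr4:95052223-95052472 (minus) for Jun, chr1:191183334-191183583 (minus) for Atf3, chr17:26508473-26508722 (minus) for Dusp1 and chr7:28379229-28379478 (minus) for Zfp36. Capitals mark the CREB half-site TGACG on either strand in Fos, Atf3 and Dusp1, the AP-1 type site TGACATCA in Jun, the E-box CACGTG as a further site in Dusp1, and the Egr site GCGNGGGCG in Zfp36.
Fos: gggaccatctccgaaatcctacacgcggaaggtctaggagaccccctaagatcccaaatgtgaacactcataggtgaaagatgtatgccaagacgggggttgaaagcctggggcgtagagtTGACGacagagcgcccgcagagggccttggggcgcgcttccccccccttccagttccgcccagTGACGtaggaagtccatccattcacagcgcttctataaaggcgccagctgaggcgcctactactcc
Jun: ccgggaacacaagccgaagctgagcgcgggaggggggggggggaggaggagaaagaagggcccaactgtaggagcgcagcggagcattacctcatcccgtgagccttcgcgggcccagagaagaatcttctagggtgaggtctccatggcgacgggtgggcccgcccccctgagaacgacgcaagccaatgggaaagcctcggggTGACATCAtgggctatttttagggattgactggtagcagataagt
Atf3: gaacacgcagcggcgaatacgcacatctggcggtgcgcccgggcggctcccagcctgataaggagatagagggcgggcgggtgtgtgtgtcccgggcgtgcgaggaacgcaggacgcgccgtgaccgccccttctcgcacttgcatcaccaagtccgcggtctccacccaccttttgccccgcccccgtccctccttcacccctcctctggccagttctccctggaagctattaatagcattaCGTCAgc
Dusp1: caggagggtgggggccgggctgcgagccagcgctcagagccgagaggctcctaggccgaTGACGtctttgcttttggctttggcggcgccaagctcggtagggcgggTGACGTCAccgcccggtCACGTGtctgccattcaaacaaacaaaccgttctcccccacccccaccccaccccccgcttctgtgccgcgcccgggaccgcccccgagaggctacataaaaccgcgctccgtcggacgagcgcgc
Zfp36: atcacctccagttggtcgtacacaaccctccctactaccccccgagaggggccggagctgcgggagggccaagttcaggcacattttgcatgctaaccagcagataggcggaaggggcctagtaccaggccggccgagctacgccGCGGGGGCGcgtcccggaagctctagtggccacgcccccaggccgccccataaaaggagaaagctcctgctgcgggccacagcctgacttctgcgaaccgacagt

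In these letters Fos held TGACG at 129 and at 66 bases before its start (the distances −129 and −66 give the first base of the match). Dusp1 held the full CREB palindrome TGACGTCA at −143, which contains the half-site on both strands, a further TGACG at −191 and the E-box at −126, the sequence that Myc with Max and several other factors bind. Jun held TGACATCA at −45, Atf3 held the half-site on the other strand at −7, and Zfp36 held the Egr site at −105 and a CArG box, the binding site of SRF, at −58. Of the 8 members with a promoter in the table (all but Egr1 and Ier2), 5 held TGACG, 2 the Egr site, and 1 each TGACGTCA, TGACATCA, CACGTG and a CArG box. None held the AP-1 consensus TGANTCA. Among all 32851 promoter windows of this length, TGACG on either strand was present in 17.8%, TGACGTCA in 1.55%, TGACATCA in 2.93%, TGANTCA in 6.75%, CACGTG in 6.02%, GCGNGGGCG in 4.7% and a CArG box in 1.47%. These matches describe letters only, and no binding was measured.

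Values are log2 signals as deposited, normalised by RMA. Over all 27 arrays Jund was the brightest member, with a mean of 10.35 that lies at percentile 96 of all probe sets. Fosb, Jun, Junb, Atf3, Egr1, Dusp1 and Zfp36 lay between percentiles 52.3 and 76.7, Ier2 at 45.9 and Fos at 21.8. The means of 15 bacterial control probe sets, whose genes a mouse does not have, ran from 3.58 to 7.14, with 7.14 for AFFX-PheX-3_at and 5.68 for the next, AFFX-ThrX-3_at. Fos (mean 5.28), Jun (7.12), Ier2 (6.77), Atf3 in untreated islets (6.84) and the Egr1 probe set 161802_i_at (5.90) lay within that range. Folds of these are differences in signal, and the share of it that is background was not tested. Signals of different probe sets are not comparable as amounts of mRNA. Ins2, the insulin gene, lay between 13.35 and 13.91 in every array, and 13 beta cell marker genes averaged 9.21 to 10.28 over the arrays. Their levels were not constant: after 21 days 4 of the 13 fell against untreated islets, among them Abcc8 by 1.88, Slc2a2 by 1.63 and G6pc2 by 1.39 (log2; adjusted p 0.000421, 0.0114 and 0.00510 by limma). In such tissue samples fewer cells of a type and less RNA per cell cannot be told apart. Arrays also differed in acinar, leukocyte and other marker levels, which are given beside the results they move with.

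**Figure D1:**
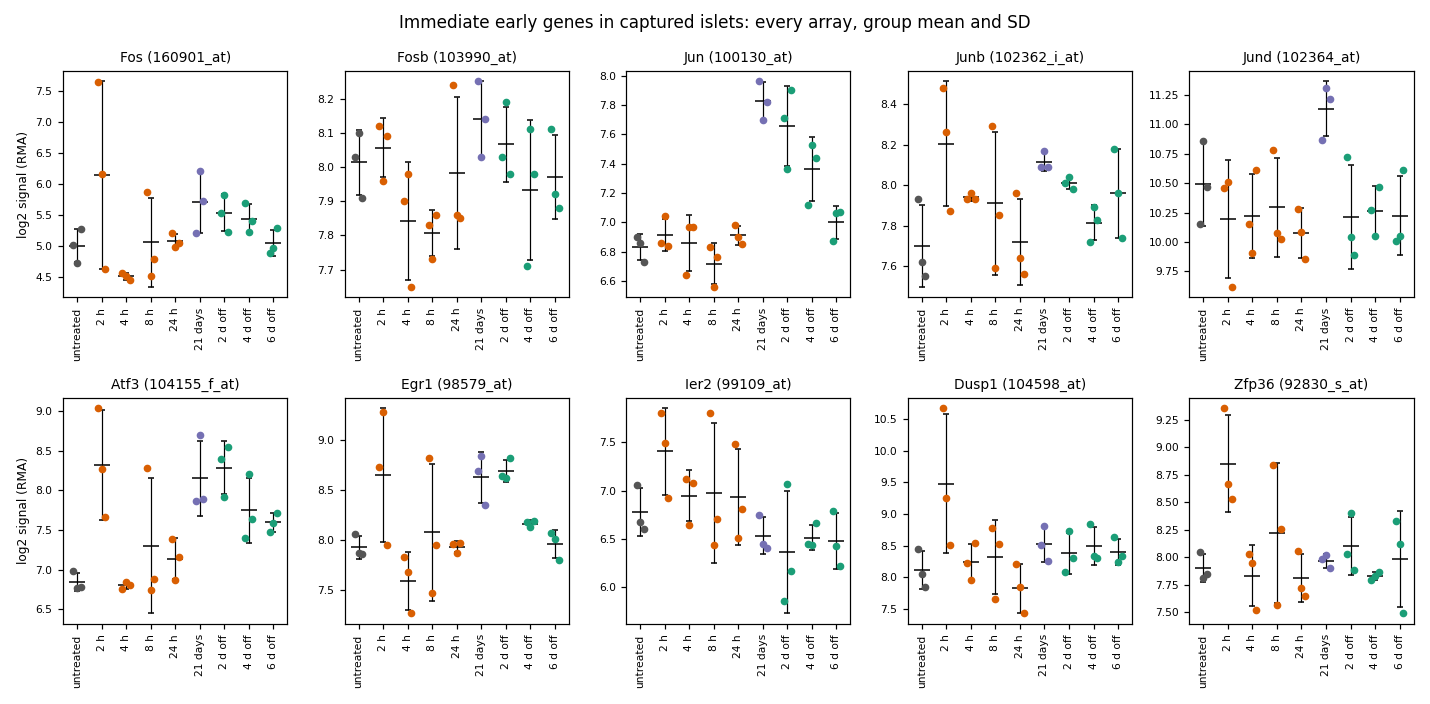
Log2 RMA signal (vertical axis, a separate scale for each gene) of the main probe set of the 10 genes in the 9 groups, with 1 point per array and a bar for the mean ± SD of 3 arrays. Atf3, Dusp1 and Zfp36 have all 3 arrays at 2 h above the 3 untreated ones, and Jun is high from 21 days to 4 days after withdrawal.

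At 2 h after 4OHT a group of members was higher than in untreated islets but none passed the test, and the 3 arrays at 2 h differed widely among themselves. Atf3, Dusp1 and Zfp36 were higher in each of the 3 arrays than in any untreated array. Fos, Egr1, Junb and Ier2 were higher in replicates 1 and 2, while replicate 3 lay within the untreated range for Egr1, Junb and Ier2 and below it for Fos. Jun, Fosb and Jund stayed near their untreated levels. With limma over all 27 arrays and Benjamini-Hochberg adjustment over all probe sets, 0 of 10 main probe sets passed an adjusted p of 0.05, against 0.394% of all probe sets (49 of 12422). At an unadjusted p under 0.05 there were 6 of 10, all higher, against 11.7% of all probe sets. The median difference of the 10 genes was 0.68, and that of all probe sets was -0.07.

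Atf3 encodes a stress-induced bZIP factor that binds the CREB site. Its signal was 6.98, 6.77 and 6.78 in the untreated arrays and 9.04, 8.27 and 7.66 at 2 h. All 3 arrays at 2 h were above all 3 untreated ones, and the lowest of them was replicate 3. The difference was 1.48 ± 0.34 (SE from the spread within all 9 groups, n = 3 per group), or 2.79-fold. Its adjusted p was 0.0566 by limma, just short of the threshold. The other probe sets of Atf3 did not show it: 104156_r_at differed by 0.24 ± 0.15 and 161645_r_at by -0.50 ± 0.15 (adjusted p 0.545 and 0.167 by limma), and in the latter all 3 arrays at 2 h were below the untreated ones.

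The feedback genes separated the groups as well. Dusp1, the phosphatase that inactivates p38, JNK and ERK, read 8.45, 8.05 and 7.85 in untreated islets and 10.68, 9.26 and 8.51 at 2 h. The 2 h arrays alone spanned 2.17 on the log2 scale, although the groups did not overlap. The difference was 1.37 ± 0.38, or 2.58-fold (adjusted p 0.131 by limma). Zfp36, which encodes tristetraprolin, an RNA-binding protein that hastens the decay of cytokine mRNAs, read 8.05, 7.81 and 7.85 before and 9.36, 8.67 and 8.53 after. Here too every 2 h array was above every untreated one, and the difference was 0.95 ± 0.26, or 1.93-fold (adjusted p 0.131 by limma). Groups that do not overlap, with the later one higher, were found for 3 of 10 members and for 5.31% of all probe sets.

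Fos, the AP-1 partner that cannot pair with itself, read 5.01, 4.73 and 5.27 in untreated islets and 7.65, 6.17 and 4.62 at 2 h. The first of these is the highest Fos value of the 27 arrays, and the third lies below all untreated arrays. The difference of 1.14 ± 0.46 had a 95% interval from 0.18 to 2.10 and an adjusted p of 0.330 by limma. That SE pools the spread of all 9 groups, while the Fos SD was 1.52 at 2 h and 0.27 in untreated islets. The second Fos probe set, 161716_at, differed by -0.20 ± 0.16. Egr1, a zinc finger factor, read 8.06, 7.87 and 7.86 and then 8.73, 9.28 and 7.95, a difference of 0.72 ± 0.27 (adjusted p 0.278 by limma). Junb, a Jun protein of weaker activity, read 7.93, 7.62 and 7.55 and then 8.48, 8.26 and 7.87, a difference of 0.50 ± 0.16 (adjusted p 0.208 by limma). In both genes, by these probe sets, replicates 1 and 2 were above the untreated range and replicate 3 was within it. The second Junb probe set, 102363_r_at, read 7.88, 8.22 and 7.55 untreated and 8.24, 8.06 and 7.73 at 2 h, which overlap, a difference of 0.13 ± 0.15.

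The remaining members differed less. Ier2, a short nuclear protein of the same gene class, was higher by 0.63 ± 0.33 with overlapping groups (7.06, 6.67 and 6.60 untreated and 7.81, 7.49 and 6.92 at 2 h). Jun, the central AP-1 subunit, differed by 0.08 ± 0.13, with a 95% interval from -0.19 to 0.36. Fosb, a close relative of Fos, differed by 0.04 ± 0.12 (interval -0.20 to 0.29), and Jund, the Jun protein that resting cells already hold, by -0.30 ± 0.27 (interval -0.86 to 0.27). All 3 intervals leave out a 2-fold difference (1 on the log2 scale) in either direction.

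The 3 arrays at 2 h formed a ladder that the members shared. Replicate 1 was the highest of the 3 for 7 of 10 members and replicate 3 the lowest for 9 of 10. Of all probe sets, 28.5%, 28.3% and 45.6% were highest in replicates 1 to 3. In replicates 1 and 2, 8 members lay above all untreated arrays, and in replicate 3 only Atf3, Dusp1 and Zfp36 did. For all probe sets the corresponding shares were 17.2%, 15.9% and 19.1%, so the third array was not low in general. Leaving out 1 array at a time gave 0 to 3 members called and 18 to 98 probe sets. The highest counts, with Fos, Atf3 and Dusp1 called, came without 2 h replicate 3. That array was the lowest for 9 of 10 members, so these calls are no separate support. Leukocyte markers (43 measured genes) averaged 8.83, 7.86 and 8.24 in the 3 arrays at 2 h against 7.48 to 7.80 in untreated islets, with 36 of 43 higher on average and none called. Acinar markers (15 genes) averaged 10.61, 10.87 and 11.94 in replicates 1 to 3, the reverse of the members' ladder, against 8.53 to 11.41 in untreated islets. Stromal markers (16 genes) followed the order of the members, with 8.65, 8.37 and 7.94 in replicates 1 to 3 against 7.76 to 8.37 in untreated islets. The part of these cells in the result was not tested. With the acinar and leukocyte means as covariates the count was 1, Atf3.

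**Figure D2:**
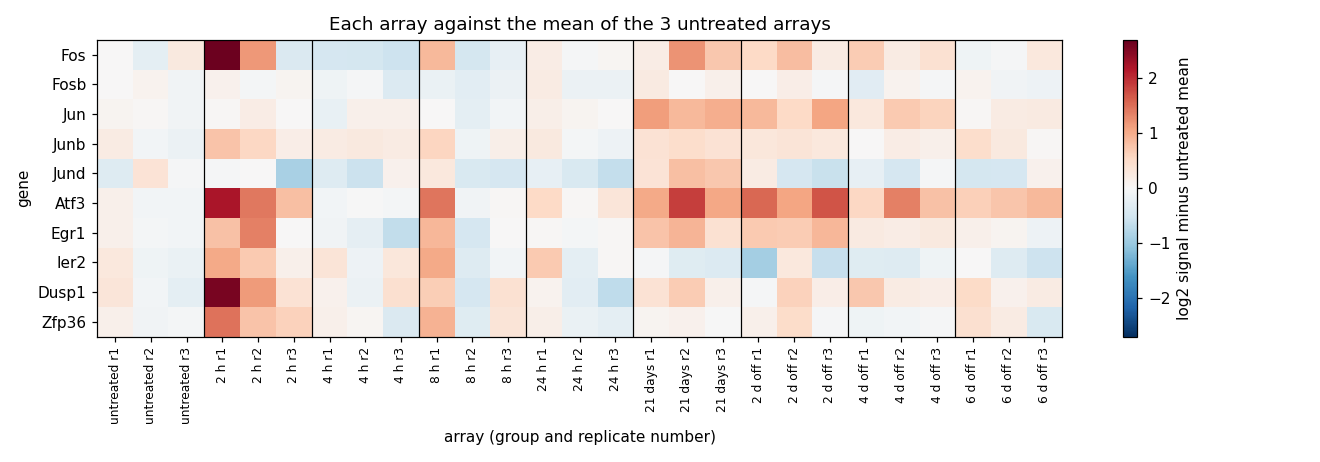
Log2 signal of each main probe set minus the mean of the 3 untreated arrays (colour), for the 10 genes (rows) and 27 arrays (columns, grouped by treatment, r1 to r3 are replicate numbers). Replicates 1 and 2 at 2 h and replicate 1 at 8 h are red across many genes, and the red block of Jun runs from 21 days to 4 days off drug.

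At 4 h the members lay near their untreated levels. Against untreated islets 0 of 10 passed, where 0.797% of all probe sets did, and the differences ran from -0.50 (Fos) to 0.24 (Junb). Fos read 4.56, 4.52 and 4.44, below every untreated array, and Egr1 read 7.83, 7.68 and 7.27, also below each of them, a separation found for 5.53% of all probe sets. The differences were -0.50 ± 0.46 (95% interval -1.46 to 0.46) and -0.34 ± 0.27 (-0.90 to 0.22). By the second probe sets of Fos and Egr1, 161716_at and 161802_i_at, the 4 h arrays overlapped the untreated ones. Atf3 read 6.76, 6.84 and 6.80 and Zfp36 8.03, 7.95 and 7.52, both overlapping the untreated arrays, with differences of -0.04 and -0.07. Fosb differed by -0.17, Jun by 0.03, Jund by -0.27, Ier2 by 0.17 and Dusp1 by 0.13, and these overlapped as well.

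Set directly against 2 h, with the same 2 h arrays as above, 9 of 10 members were lower at 4 h, with a median difference of -0.74 against 0.04 over all probe sets. Again none passed: 0 of 10 members and 0 of 12422 probe sets (0%), the latter with 6.26% at an unadjusted p under 0.05 by the same limma test. At that unadjusted level there were 5 members, all lower: Atf3 at -1.52 ± 0.34, Egr1 at -1.06 ± 0.27, Zfp36 at -1.02 ± 0.26, Fos at -1.64 ± 0.46 and Dusp1 at -1.24 ± 0.38. In all of these but Dusp1 every 4 h array lay below every 2 h array, which held for 4.44% of all probe sets. Other probe sets of these genes had higher means at 4 h: Fos 161716_at (4.37 to 4.59), Egr1 161802_i_at (5.51 to 5.60) and Atf3 161645_r_at (6.34 to 6.72). The third Atf3 probe set, 104156_r_at, was lower (6.96 to 6.70). Leaving out 1 array at a time gave 0 to 4 members called and 0 to 39 probe sets. The highest counts, with Fos, Atf3, Egr1 and Dusp1 called, came without 2 h replicate 3. As that array was the lowest at 2 h for most members, these calls are no separate support.

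At 8 h the members rested on 1 array. Replicate 1 was the highest of the 3 for 9 of 10 members and replicate 2 the lowest for 9 of 10. Of all probe sets, 29.6%, 40.1% and 32.6% were highest in replicates 1 to 3. Atf3 read 8.28, 6.74 and 6.88, Egr1 8.82, 7.47 and 7.95, and Ier2 7.80, 6.43 and 6.70. Replicate 1 had 7 members above all untreated arrays, replicate 2 had 0 with 9 below them, and replicate 3 had 2. The shares of all probe sets above were 21.4%, 20% and 19.7%, and no share is given for those below. No member passed against untreated islets (0 of 10, where 1.7% of all probe sets did) or against 4 h (0.0242%). The differences from untreated were 0.46 for Atf3, 0.32 for Zfp36, 0.21 for Junb and Dusp1, 0.20 for Ier2 and 0.15 for Egr1. They were 0.06 for Fos, -0.11 for Jun, -0.20 for Jund and -0.21 for Fosb. All 8 h arrays of Fosb lay below the untreated ones, and the share of all probe sets that did is not given here. Leukocyte markers did not follow the same order, with 8.09, 7.26 and 8.69 in replicates 1 to 3, nor did acinar markers (10.11, 9.90 and 12.10). Stromal markers did, with 8.58, 7.62 and 8.03, and their part in the result was not tested.

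At 24 h the group means were within 0.42 of untreated, from -0.42 ± 0.27 for Jund to 0.29 ± 0.34 for Atf3. Dusp1 read 8.21, 7.84 and 7.43, and Zfp36 8.06, 7.72 and 7.65, both overlapping the untreated arrays, with differences of -0.29 and -0.09. Ier2 differed by 0.16, Fos and Jun by 0.08, Junb by 0.02, Egr1 by 0.00 and Fosb by -0.03. Replicate 1 was once more the highest for 9 of 10 members, and for 41.6% of all probe sets. No member passed against untreated islets (0 of 10, with 1.38% of all probe sets called) or against 8 h (1.8%). Replicate numbers carry no order, and no label says that replicates 1 of different groups were handled together.

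After 21 days of daily drug Jun rose against untreated islets, as did Atf3 by its main probe set alone, and no member fell. The call was made for 2 of 10 members, where 14.6% of all probe sets were called and 7.27% were called higher, so the members' share was not far above that of the arrays at large. All 3 arrays lay above all untreated ones for 5 members, Jun, Junb, Jund, Atf3 and Egr1, and for 16.5% of all probe sets. Ier2, Zfp36 and Dusp1, which were high at 2 h, differed by -0.25 ± 0.33, 0.06 ± 0.26 and 0.41 ± 0.38. The 2 h and the 21 day comparison share the untreated arrays. Acinar markers averaged 7.61 to 8.23 at 21 days, below every untreated array, and stromal markers 8.29 to 8.71 against 7.76 to 8.37, with 14 of 16 higher and none called. Beta cell markers averaged 9.51 to 9.68 against 9.89 to 10.28, endothelial markers 7.75 to 7.86 against 8.00 to 8.41 (1 of 11 rose and 3 fell) and leukocyte markers 7.27 to 7.43 against 7.48 to 7.80 (1 of 43 fell). The part of the stromal, beta cell and endothelial markers in these results was not tested.

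Jun read 6.90, 6.86 and 6.73 in untreated islets and 7.96, 7.70 and 7.82 after 21 days. The groups were far apart and tight, and none of the 15 arrays from untreated to 24 h reached the lowest 21 day array. Jun rose by 0.997 ± 0.13, or 2-fold, with an adjusted p of 6.47e-05 by limma. In all 17 alternative fits the call held, and the difference stayed between 0.93 and 1.06, just under a minimum of 2-fold where that was asked for as well.

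Atf3 read 7.87, 8.70 and 7.89 after 21 days, above all untreated arrays, with replicate 2 the highest. Atf3 rose by 1.31 ± 0.34, or 2.48-fold (adjusted p 0.01275 by limma). The call ended without 21 day replicate 2 (1.04, adjusted p 0.0825), with the acinar and leukocyte means as covariates (1.09, adjusted p 0.0546) and when the mean of the 3 Atf3 probe sets was used (0.45, adjusted p 0.0611). The other probe sets 104156_r_at and 161645_r_at differed by 0.02 ± 0.15 and 0.01 ± 0.15. Over the 27 arrays they correlated with the main one with a Pearson r of 0.43 and -0.26. Which of the 3 reads the Atf3 mRNA was not tested.

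Egr1 and Fos each had a second, dimmer probe set that was called where the main one was not. Egr1 by its main probe set read 8.69, 8.84 and 8.35, higher by 0.70 ± 0.27 (adjusted p 0.0868 by limma). Its probe set 161802_i_at read 5.82, 5.52 and 5.69 untreated and 6.81, 7.0 and 6.10 at 21 days, with no overlap. It rose by 0.96 ± 0.20, or 1.95-fold (adjusted p 0.00261 by limma).

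Fos by its main probe set read 5.21, 6.21 and 5.73, overlapping untreated, with a difference of 0.71 ± 0.46 (adjusted p 0.325 by limma). Its probe set 161716_at read 4.70, 4.27 and 4.74 untreated and 5.21, 5.22 and 4.95 at 21 days. That probe set rose by 0.56 ± 0.16, or 1.47-fold (adjusted p 0.0197 by limma), at a level within that of the bacterial controls. At 2 h both second probe sets had stayed down, Egr1 at 5.53, 5.54 and 5.47 and Fos at 4.35, 4.29 and 4.48. Over the 27 arrays the paired probe sets correlated with a Pearson r of 0.44 (Spearman rho 0.50) for Egr1 and 0.06 (rho 0.21) for Fos. Which of them reads the mRNA was not tested.

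**Figure D3:**
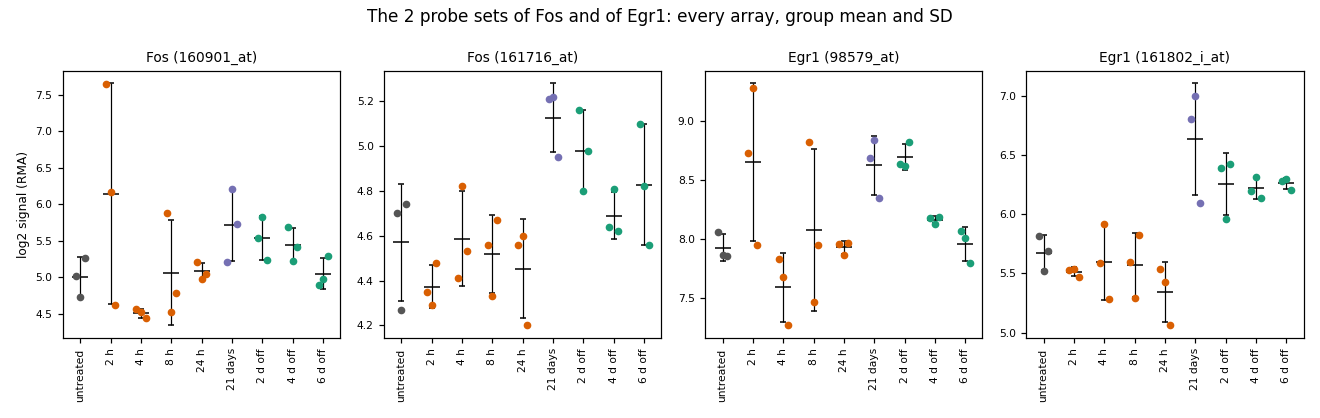
Log2 RMA signal (vertical axis, a separate scale for each panel) of both probe sets of Fos and of Egr1 in the 9 groups, with 1 point per array and a bar for the mean ± SD of 3 arrays. The main probe sets (160901_at and 98579_at) are high in replicates 1 and 2 at 2 h and in replicate 1 at 8 h. At 21 days 98579_at lies above untreated, while 160901_at overlaps it. The second ones (161716_at and 161802_i_at) have their highest mean at 21 days. After that 161802_i_at stays above untreated, while 161716_at overlaps it at 4 and 6 days off drug.

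The AP-1 subunits Junb and Jund were higher at 21 days without passing. Junb read 8.09, 8.17 and 8.09, all above the untreated arrays, with a difference of 0.42 ± 0.16 (adjusted p 0.0857 by limma). By 102363_r_at the 21 day arrays overlapped the untreated ones, with a difference of 0.08 ± 0.15 (adjusted p 0.775). Jund read 10.15, 10.86 and 10.47 untreated and 10.87, 11.31 and 11.22 at 21 days, so that untreated replicate 2 and 21 day replicate 1 were almost level. Its difference was 0.64 ± 0.27 (adjusted p 0.120 by limma). Fosb differed by 0.13 ± 0.12.

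The 21 day group, whose time since the last dose is not given, was then set against the acute phase. Compared with 24 h, 21 days gave 3 of 10 members called, Jun at 0.92 ± 0.13, Jund at 1.06 ± 0.27 and Atf3 at 1.02 ± 0.34 (adjusted p 0.000107, 0.00907 and 0.0383 by limma). Among all probe sets 20.8% were called and 11.6% were called higher, and 24.1% lay wholly above 24 h, as 6 members did. Acinar markers separated these groups completely, with 12.10 to 12.74 at 24 h and 7.61 to 8.23 at 21 days, and 14 of 15 acinar genes fell. Leukocyte markers did not differ as much, with 7.51 to 7.79 and 7.27 to 7.43. Duct markers were lower at 21 days (7.32 to 7.79 against 8.29 to 8.47, with 4 of 9 called) and stromal markers higher (8.29 to 8.71 against 7.87 to 8.26, with 3 of 16 called), and their part was not tested. The 3 prime excess of the Gapdh control (its 3 prime minus its 5 prime signal) was 4.77 to 4.92 (log2) at 21 days and 3.70 to 3.90 at 24 h. With this excess as a covariate 5 members were called. With both means as covariates Jun alone remained called (Jund 0.55, adjusted p 0.469, and Atf3 0.35, adjusted p 0.740). Atf3 also lost the call without 24 h replicate 2, without 24 h replicate 3 and without 21 day replicate 2 (adjusted p 0.129, 0.0903 and 0.193). The others differed by 0.70 (Dusp1), 0.69 (Egr1), 0.64 (Fos), 0.40 (Junb), 0.16 (Fosb and Zfp36) and -0.40 (Ier2).

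A direct comparison of 21 days with 2 h was added after the values had been seen, since the members that were high differed between these groups. It called 3 of 10 members, where 21.6% of all probe sets were called, 13.6% higher and 8% lower. Jun rose by 0.91 ± 0.13 and Jund by 0.94 ± 0.27, while Zfp36 fell by 0.89 on the log2 scale (SE 0.26) from 9.36, 8.67 and 8.53 to 7.98, 8.02 and 7.90 (adjusted p 0.000156, 0.0192 and 0.0193 by limma). Dusp1 differed by -0.96 ± 0.38 and Ier2 by -0.88 ± 0.33 (adjusted p 0.0701 and 0.0580). With the acinar and leukocyte means as covariates only Jun was called. Jund lost the call without 2 h replicate 3 and without 21 day replicate 2 (adjusted p 0.0951 and 0.0771), and Zfp36 without 2 h replicate 1 and without 21 day replicate 1 (0.121 and 0.0505). Leukocyte markers were 7.86 to 8.83 at 2 h and 7.27 to 7.43 at 21 days. Atf3 and Egr1 differed little between these groups, by -0.17 ± 0.34 (95% interval -0.88 to 0.54) and -0.03 ± 0.27 (-0.59 to 0.53).

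**Figure D4:**
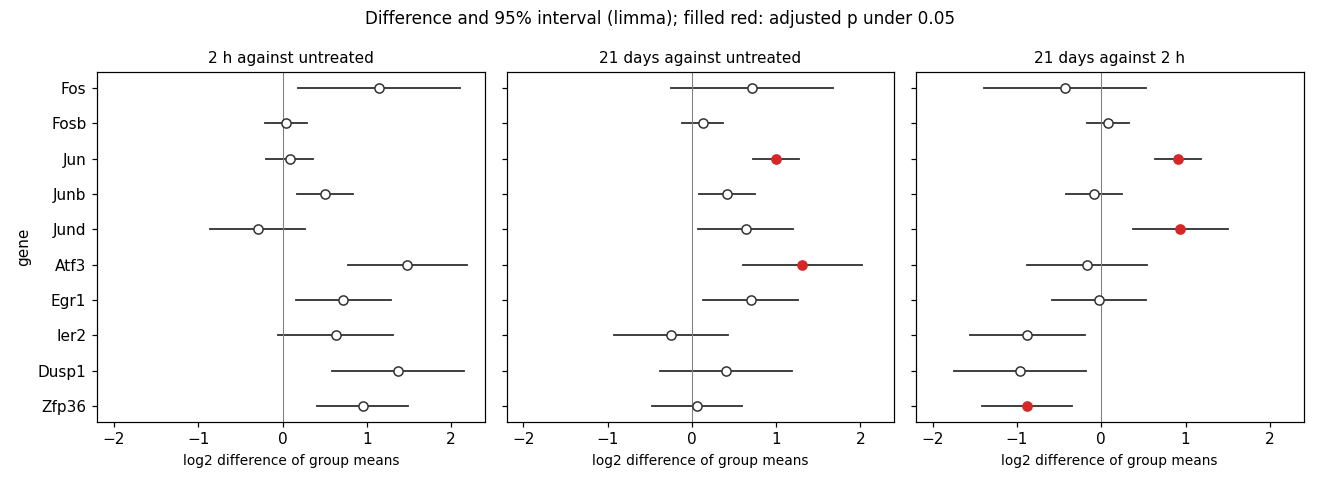
Difference of group means on the log2 scale (horizontal axis) with its 95% interval from limma for the 10 genes (rows) in 3 comparisons, filled red where the adjusted p is under 0.05. At 2 h against untreated no gene is filled, at 21 days Jun and Atf3 are, and between 21 days and 2 h Jun and Jund lie to the right while Zfp36 lies to the left.

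The last question was whether the levels returned after the drug was stopped. Jun read 7.71, 7.36 and 7.90 at 2 days, 7.12, 7.53 and 7.44 at 4 days and 6.87, 7.06 and 7.07 at 6 days off drug. The group means were 7.83, 7.66, 7.36 and 7.0 from 21 days to 6 days off, and 6.83 in untreated islets. The 4 and 6 day arrays lay below all 21 day arrays, and the 6 day arrays overlapped the untreated ones. Against 21 days Jun differed by -0.17 ± 0.13 at 2 days (adjusted p 0.515), fell by 0.46 at 4 days (SE 0.13, adjusted p 0.0434) and fell by 0.83 at 6 days (SE 0.13, adjusted p 0.00537), all by limma. At 6 days off drug Jun was 0.17 ± 0.13 above untreated, with a 95% interval from -0.10 to 0.44.

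Jun was the only member called between 21 days and the groups off drug. Among all probe sets 0.153% were called at 2 days (0 of 10 members), 6.01% at 4 days (1 of 10) and 0.274% at 6 days (1 of 10). The 4 day call did not survive leaving out any 1 of the 6 arrays (adjusted p 0.0516 to 0.220), with the replicate number as a block (0.05001), after median centring (0.0557) and with only the 6 arrays compared (0.0692, where Jund was called instead). The 6 day call held whichever of its 6 arrays was left out, and ended with the acinar and leukocyte covariates (adjusted p 0.0543) and with only the 6 arrays compared (0.148). The Gapdh 3 prime excess was 4.83 ± 0.08 (log2) at 21 days and 3.54 to 3.92 on average off drug. With it as a covariate Jun was not called at 4 days (adjusted p 0.0981) and was called at 6 days. Without 1 array the difference ran from -0.55 to -0.34 at 4 days and from -0.89 to -0.76 at 6 days, and in the other fits from -0.49 to -0.43 and from -0.86 to -0.71. At 6 days off, acinar markers averaged 8.18 to 10.36 against 7.61 to 8.23 at 21 days (15 of 15 higher, none called) and leukocyte markers 7.53 to 8.87 against 7.27 to 7.43 (39 of 43 higher, none called). At 4 days off, beta cell markers averaged 10.03 to 10.18 against 9.51 to 9.68 (12 of 13 higher, 1 called). The part of the beta cell markers in these results was not tested.

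Jund read 10.72, 10.04 and 9.89 at 2 days off, all below the 21 day arrays, a difference of -0.92 ± 0.27 (adjusted p 0.142 by limma). At 4 and 6 days the difference was -0.87 ± 0.27 and -0.91 ± 0.27, again without overlap (adjusted p 0.0582 and 0.138). Egr1 read 8.64, 8.62 and 8.82 at 2 days, inside the range of the 21 day arrays, then 8.18, 8.13 and 8.19 at 4 days and 8.07, 8.01 and 7.80 at 6 days. Its 4 and 6 day arrays lay below all 21 day arrays, with differences of -0.46 ± 0.27 and -0.67 ± 0.27 (adjusted p 0.263 and 0.272 by limma). At 4 days Jun, Junb, Jund, Egr1 and Zfp36 lay wholly below 21 days (5 of 10, against 25% of all probe sets). At 6 days Jun, Jund, Atf3 and Egr1 did (4 of 10, against 11%). For 2 days the share of all probe sets is not given here.

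Atf3 read 8.40, 7.91 and 8.55 at 2 days, 7.40, 8.20 and 7.64 at 4 days and 7.48, 7.59 and 7.72 at 6 days off drug. By this main probe set all 9 arrays lay above the 3 untreated arrays, and the share of all probe sets that did is not given here. At 6 days Atf3 was 0.75 ± 0.34 above untreated (adjusted p 0.165 by limma) and differed by -0.56 ± 0.34 from 21 days (adjusted p 0.492), so it was told apart from neither. The other Atf3 probe sets, 104156_r_at and 161645_r_at, overlapped the untreated arrays at 6 days and differed by -0.17 ± 0.15 and -0.24 ± 0.15 (adjusted p 0.497 and 0.330). The dimmer Egr1 probe set 161802_i_at also stayed above untreated at 6 days, at 6.28, 6.30 and 6.21, by 0.59 ± 0.20 (adjusted p 0.0557). Against untreated, 0 of 10 members were called at 6 days, where 11.7% of all probe sets were. Ier2 (5.85, 7.07 and 6.16 at 2 days), Dusp1 and Zfp36 differed from 21 days by -0.17 to 0.14 at the 3 times, each by less than its SE. Fos differed by -0.18, -0.28 and -0.67, Fosb by -0.07, -0.21 and -0.17 and Junb by -0.11, -0.30 and -0.16, and none was called.

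Over all 9 groups the F test called Jun, Atf3, Egr1 and Zfp36 (adjusted p 5.78e-06, 0.00254, 0.0150 and 0.0396 by limma), 4 of 10 members against 37.9% of all probe sets. Fosb had the flattest profile, between 7.65 and 8.25 in all 27 arrays. In the order of group means, 2 h stood first for Fos, Junb, Atf3, Ier2, Dusp1 and Zfp36, and 21 days first for Fosb, Jun and Jund, while Egr1 was highest at 2 days off drug. The highest group overlapped the next in every gene except Jund, where all 21 day arrays were above those of the next group, untreated. Further down the order, neighbours did not overlap between 4 days off and 24 h for Fos, 4 and 6 days off for Jun, 21 days and 2 days off for Junb, 21 days and 4 days off for Egr1, and untreated and 4 h for Fos and Egr1. The lowest group was 4 h for Fos, Atf3 and Egr1, 8 h for Fosb and Jun, 24 h for Jund, Dusp1 and Zfp36, 2 days off for Ier2 and untreated for Junb.

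Within groups several members moved together from array to array. The deviations from group means of Junb and Zfp36 correlated with a Pearson r of 0.85, and those of Fos and Dusp1 with 0.79. Those of Junb and Ier2 had 0.78 and those of Fos and Atf3 0.70. Other pairs did not move together. Over all pairs r ran from -0.20 (Fosb and Jund) to 0.85, and for Fos and Jun it was -0.11. These are descriptions over 27 arrays that share amplification and normalisation. By the rule of highest correlation with the mean of the 10 genes, over 27 arrays and 4874 candidates, the most similar genes were Hdc (Pearson r 0.86), Tnfrsf1a (0.80), Ugdh (0.80), Emp1 (0.78), Fn1 (0.78), Cd14 (0.76), Spsb1 (0.75) and Selp (0.74). Fn1 also stands in the stromal and Cd14 in the leukocyte marker list. Hdc makes histamine, Tnfrsf1a is a TNF receptor, Cd14 is a co-receptor for bacterial lipopolysaccharide that is found on myeloid cells, and Selp is the P-selectin of platelets and vessel walls.

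Other genes of the pathway were taken from lists. Of 41 measured further immediate early genes, 3 rose at 2 h and none fell: Cebpd, a C/EBP factor, by 2.17 ± 0.45, Socs3, a feedback inhibitor of cytokine signalling, by 2.02 ± 0.35, and Errfi1, an inhibitor of the EGF receptor, by 1.30 ± 0.25 (adjusted p 0.0301, 0.00803 and 0.0184 by limma). The median of the 41 was 0.35, beside -0.07 over all probe sets, of which 0.394% were called. None of the 41 was called at 4 h. Socs3 was also called at 8 h, higher by 1.87 ± 0.35 (adjusted p 0.00683), while Btg2, an antiproliferative gene, fell by 0.64 (adjusted p 0.0330). After 21 days 4 of the 41 rose and 4 fell, not far from the 14.6% called among all probe sets, among them Gadd45b, a stress gene, by 1.81 ± 0.35, Klf10, a TGF-beta early gene, by 1.41 ± 0.23, and Gadd45g, which fell by 1.24 (adjusted p 0.00160, 0.000421 and 0.000142). Against 2 h the same list had 3 called higher and 12 lower at 21 days, where 21.6% of all probe sets were called, 8% lower.

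Of 20 measured kinases and factors that switch these genes on, none passed at 2, 4, 8 or 24 h, and 6 rose and 2 fell after 21 days, where 14.6% of all probe sets were called and 7.27% rose, among them Nras (0.96 ± 0.21) and Atf2, a partner of Jun (0.96 ± 0.22), with adjusted p of 0.00362 and 0.00611 by limma. Of 22 other bZIP factors, 1 rose and 2 fell after 21 days, a share near the 14.6%, the largest change being that of Xbp1, a factor of the unfolded protein response, which fell by 1.86 (SE 0.24, adjusted p 5.63e-05). Of 27 AP-1 target genes none passed at 2 h and 1 at 4 and at 8 h, Ccnd1, the cyclin D1 gene, which rose by 1.25 ± 0.24 and 1.32 ± 0.24 (adjusted p 0.0131 and 0.00683). After 21 days 3 of them fell and none rose, again near that share: Mt2 and Mt1, the metallothioneins, by 1.37 and 0.77, and Vegfa by 1.13 (adjusted p 0.00187, 0.0490 and 0.00858).

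Of 16 mRNAs known to be bound by the Zfp36 protein, none passed at 2 h, with a median of 0.31, and 1 (Vegfa) fell after 21 days. Of 16 glucocorticoid and handling stress genes 2 rose at 2 h, against 0.394% of all probe sets, Cebpd and Fkbp5, a glucocorticoid-induced chaperone partner, the latter by 1.14 ± 0.18 (adjusted p 0.00342 by limma). Cebpd also stands in the list of further immediate early genes, and Mt1 and Mt2 in that of AP-1 targets. After 21 days 5 of the 16 fell and none rose, where 14.6% of all probe sets were called. Among them were Hspa1b, Mt2 and Hspa1a, which fell by 1.47, 1.37 and 1.26 (adjusted p 0.0406, 0.00187 and 0.0457 by limma). The SDs of Hspa1b and Hspa1a in untreated islets were 1.70 and 1.26. Whether handling or the injection set the levels at 2 h was not tested, since there was no vehicle group.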

How the data were processed

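RNA of laser-captured islets was measured on 27 Affymetrix arrays. The deposited values are log2 signals per probe set that the authors made by RMA, per the submitters' processing notes. Array, background and probe details beyond that are not stated in what was read here. Array medians were 6.91 to 7.01 and no pair of arrays was identical. For arrays, the number of arrays limits the precision.

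Samples were grouped by their treatment labels. Of 12488 probe sets, 66 controls were left out. A group-means model was fitted with limma 3.58.1 in R 4.3.3 to all 27 arrays (18 residual degrees of freedom), and p-values were adjusted by Benjamini-Hochberg over 12422 probe sets, with a call at 0.05 and no minimum change. Tests are two-sided. With 3 arrays against 3, an exact permutation test of 1 gene cannot go below 0.1, so none was used. Gene names come from the platform annotation: 10833 probe sets have 1 symbol, 396 several and 1193 none.

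All 10 members are named in each main comparison. From each other list only the 3 called genes with the largest change in a comparison were eligible, and the 8 genes most correlated with the members' mean were named. The members, lists and markers were chosen with earlier results of these data known. Alternatives were median centring, quantile normalisation, a filter on the dimmest 40%, a variance trend with robust fitting, array weights, the 6 arrays compared alone, a replicate block, probe set means, marker covariates, leaving out arrays and a 2-fold minimum. A covariate for the Gapdh control and the comparison of 21 days with 2 h were chosen after seeing the data. Promoters come from RefSeq (GRCm38.p6), with matches for 8 members, and were searched on both strands in Python 3.11.15. Figures were drawn with matplotlib 3.10.9.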

Additional observations from a re-analysis of the deposited data

Results flagged for a closer look

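Jun, Jund and Atf3 differed between the 21 day and 24 h groups in a direct test, which is a difference between the changes from the same untreated arrays. The values were 0.9167, 1.057 and 1.017 on the log2 scale (adjusted p 0.000107, 0.00907 and 0.0383 by limma), with all 3 arrays of the 21 day group above all 3 of the 24 h group for each gene. Jun differed between 21 days of drug and 4 or 6 days off drug, by -0.4633 and -0.8267 (adjusted p 0.0434 and 0.00537 by limma), and all 3 arrays off drug were below all 3 at 21 days at both times.

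Between 21 days and 2 h, a comparison chosen after seeing the data, Jun and Jund were higher at 21 days by 0.9133 and 0.9367, and Zfp36 differed by -0.8867 (adjusted p 0.000156, 0.0192 and 0.0193 by limma). The arrays of the groups did not overlap for any of these 3 genes. For all probe sets the share without overlap in this comparison is not given here.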

How the results depend on the processing

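No called result changed direction in any alternative that was run. Of 10 called differences of single genes, 3 (Jun at 21 days against untreated, 24 h and 2 h) kept the call in every alternative fit, but their differences (0.997, 0.917 and 0.913) did not reach the 2-fold minimum. The number of members called moved as follows, and the cause was not tested except where fewer arrays were used.

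With array weights, whose estimation stopped before full convergence, the count was 3 at 2 h, 4 at 21 days against untreated, 5 against 24 h, 5 against 2 h, 1, 2 and 3 at 2, 4 and 6 days off, and 9 in the F test. With acinar and leukocyte covariates it was 1 at 2 h, 1 at 21 days against untreated, 24 h and 2 h, 0 at 6 days off and 2 in the F test. A 2-fold minimum left 1 at 21 days against untreated and 0 against 2 h, and 0 at 4 and 6 days off. Without the dimmest 40% it was 1 at 2 h and 2 at 4 days off, after quantile normalisation 2 and after median centring 0 at 4 days off. The Gapdh covariate, added after seeing the data, gave 5 at 21 days against 24 h and 0 at 4 days off. The 6 compared arrays alone gave 5 at 21 days against 24 h and 0 at 6 days off. Without the 4 leukocyte-rich arrays the F test called 2.

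Leaving out 1 array gave 0 to 3 at 2 h, 0 to 4 at 4 h against 2 h, 1 to 2, 2 to 4 and 2 to 5 at 21 days against untreated, 24 h and 2 h, 0 at 4 days off and 3 to 8 in the F test. No comparison had all 3 correlations of same-numbered arrays over 0.1 (range -0.234 to 0.432), so replicate numbers were not taken as pairs. With the replicate block the count was 0 at 4 days off and 5 at 21 days against 2 h, and own numbers did not correlate best throughout.

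Counts over all probe sets moved more. At 2 h 49 became 0 with the 6 arrays alone, 132 with array weights and 18 to 98 without 1 array. For 21 days against untreated 1819 became 332 with a 2-fold minimum and 1140 without 21 day replicate 2. Against 24 h 2587 became 285 with the covariates and 4256 with array weights. At 4 days off 746 became 3360 with array weights and 1 to 1071 without 1 array. At 6 days off 34 became 1283 and 9 to 54, and at 2 days off 19 became 625 and 0 to 99. The other comparisons ranged from 20 to 140 at 4 h (99), 5 to 282 at 8 h (211), 47 to 336 at 24 h (171), 37 to 2399 at 6 days off against untreated (1456), 0 to 39 at 4 h against 2 h (0), 0 to 4 at 8 h against 4 h (3), 0 to 290 at 24 h against 8 h (223) and 414 to 5090 at 21 days against 2 h (2680).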
